A study of Mus musculus with 15 samples.

Results

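The 6 immediate early transcription factor genes examined here are Egr1, Egr2 and Egr3 of the early growth response family and Nr4a1, Nr4a2 and Nr4a3 of the orphan nuclear receptor family. They were found through the RefSeq accession that each array probe carries, which gave 7 probes for the 6 genes, out of 55681 probes and 20660 named genes on the arrays. Nr4a2 had 2 probes, A_52_P494622 and A_55_P1983508. The other members had a single probe each: A_51_P367866 for Egr1, A_55_P2033362 for Egr2, A_55_P2032412 for Egr3, A_51_P239654 for Nr4a1 and A_51_P128397 for Nr4a3, the last printed as 10 spots on each array. All 7 probes passed the filter of being well above background on at least 3 arrays, Nr4a3 only through the cerulein groups, where it is high.

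RNA was taken from the whole pancreas of male mice (strain C57BL/6J) and hybridised to single-colour Agilent arrays, 1 array per animal, in a study whose title concerns betacellulin, ERBB4 and acute pancreatitis. The 15 arrays comprised 4 transgenic (TG) mice given cerulein, 3 TG mice given saline, 4 wild-type (WT) mice given cerulein and 4 WT mice given saline. All mice had fasted for 18 h and were killed 3 h after 1 injection into the peritoneal cavity, which held cerulein at 50 µg/kg or only the saline vehicle. Cerulein is a cholecystokinin analogue that overstimulates acinar cells and causes acute pancreatitis in rodents. The saline mice carry a time label of 0 h, although the treatment text gives the same 3 h for them. The labels name neither the transgene nor the promoter that drives it, so the TG mice are known here only as transgenic animals of this study.

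Egr proteins are zinc-finger transcription factors whose genes are switched on within minutes of growth factor or calcium signals, largely through serum response factor and its ERK-activated partners. Nr4a proteins are nuclear receptors that act without a known hormone, and their genes are classical targets of calcium and cAMP signalling through CREB. In the pancreas, cholecystokinin receptor stimulation raises calcium and activates ERK in acinar cells, and Egr1 is a known early gene of cerulein pancreatitis.

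The start-site regions of the members show how far these textbook routes can be read in sequence. RefSeq windows for GRCm38.p6, each 300 bases long from 250 before the start to 50 after it, were held for 4 members. The Nr4a genes are shown because their windows share a dense run of the cAMP response element core TGACG (capitals, on either strand, so also CGTCA), and Egr2 because it holds that core and a CArG box of the serum response element (also in capitals). Nr4a1 (chr15:101266596-101266895, plus strand), Nr4a2 (chr2:57123954-57124253, minus strand), Nr4a3 (chr4:48045055-48045354, plus strand) and the Egr2 window at chr10:67537680-67537979 (plus strand) read as follows, 5′ to 3′.
Nr4a1: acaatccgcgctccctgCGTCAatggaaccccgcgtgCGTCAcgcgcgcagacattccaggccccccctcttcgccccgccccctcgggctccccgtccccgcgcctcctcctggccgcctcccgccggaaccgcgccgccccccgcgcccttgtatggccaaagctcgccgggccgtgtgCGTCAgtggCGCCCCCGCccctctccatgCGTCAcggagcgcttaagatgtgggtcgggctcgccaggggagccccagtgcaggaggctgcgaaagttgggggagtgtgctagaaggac
Nr4a2: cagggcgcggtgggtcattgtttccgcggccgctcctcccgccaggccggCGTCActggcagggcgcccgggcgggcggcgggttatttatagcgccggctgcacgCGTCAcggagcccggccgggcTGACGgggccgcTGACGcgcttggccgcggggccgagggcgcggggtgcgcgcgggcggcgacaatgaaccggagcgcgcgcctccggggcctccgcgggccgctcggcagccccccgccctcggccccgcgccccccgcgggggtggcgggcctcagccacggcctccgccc
Nr4a3: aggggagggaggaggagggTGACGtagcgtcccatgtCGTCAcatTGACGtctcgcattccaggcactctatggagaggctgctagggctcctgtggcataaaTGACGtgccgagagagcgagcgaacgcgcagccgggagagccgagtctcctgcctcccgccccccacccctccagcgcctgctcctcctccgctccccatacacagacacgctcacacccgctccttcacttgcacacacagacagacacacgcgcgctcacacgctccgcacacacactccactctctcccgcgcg
Egr2: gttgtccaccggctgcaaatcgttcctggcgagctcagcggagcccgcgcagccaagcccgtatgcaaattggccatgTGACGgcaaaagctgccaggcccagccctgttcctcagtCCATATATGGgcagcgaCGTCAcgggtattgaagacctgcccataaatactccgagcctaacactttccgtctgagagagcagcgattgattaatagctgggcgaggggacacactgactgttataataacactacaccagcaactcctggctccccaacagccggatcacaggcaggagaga

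The Nr4a1, Nr4a2 and Nr4a3 windows each held 4 TGACG cores. A window with at least 4 cores made up 0.231% of the 32851 windows in the table, 76 in all, and a window with at least 1 made up 20.8%. Counted from the start site, the cores began at positions -231, -213, -205 and -147 in Nr4a3 and at -200, -144, -123 and -111 in Nr4a2. The full palindrome TGACGTCA, held by 1.79% of windows, was in none of the members' windows. The Nr4a1 window also held 1 match to the Egr element GCGGGGGCG (in capitals, on the minus strand; 2.91% of windows). The Egr2 window shown held 2 cores and 1 CArG box, a motif present in 1.63% of windows. Of the other Egr2 windows, those starting at 67537619 and 67537620 overlap it and held the same sites. The window starting at 67537316 held another CArG box and no core, and the window starting at 67535249 held none of the motifs. No member window held the other Egr element, GCGTGGGCG (0.612% of windows), or the Nr4a monomer element AAAGGTCA (1.51%). Matching was on both strands, and a match is only a description of these letters. Egr1, on chromosome 18, and Egr3, at chr14:70077317-70082613 in GRCm38.p6, are named only.

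Levels are given throughout as log2 levels, that is log2 of the processed signal minus the 75th percentile of that array, so that 0 is the 75th percentile itself. Per array, 54.9% to 76.0% of probes passed as well above background, and no probe was saturated. Each gene's 4 group means were fitted with limma across 17338 genes, a gene being called when its Benjamini-Hochberg adjusted p was under 0.05. The file headers place the arrays on 3 slides, of which slide 2 held cerulein arrays alone, so values with slide as a block and within slides 1 and 3 are given where they change a reading. Each of the 13 measured acinar markers was well above background on at least 1 array, and their summed signal ran lower after cerulein, with overlapping ranges: 9425 to 19240 in TG cerulein mice against 18160 to 27500 in TG saline mice, and 11790 to 26330 in WT cerulein mice against 19840 to 33920 in WT saline mice, in multiples of the array's 75th percentile. Of the 13, the acinar transcription factor gene Ptf1a was called up, by 1.68 in TG and 1.17 in WT mice, and in WT mice the acinar factor gene Bhlha15 fell by 1.24 and the ribonuclease gene Rnase1 fell by 1.21. Over all genes 4.78% were called up in TG mice and 5.63% in WT mice. Of 8 neutrophil markers tested 1 was called up in TG mice (Clec4d, by 1.82) and 3 in WT mice (Clec4d, S100a8 and S100a9, by 2.49, 2.38 and 2.85). The neutrophil sum, over 9 markers, overlapped between treatments: it was 118 to 257 in TG cerulein mice against 190 to 272 in TG saline mice, and 111 to 259 in WT cerulein mice against 144 to 261 in WT saline mice. The cerulein arrays of slide 2 were the lowest, at 118 in TG and 111 and 118 in WT mice. Within slide 1 the sum was 161 and 163 after cerulein against 190 after saline in TG mice, and 169 against 144 in WT mice. Within slide 3 the treatments overlapped in both genotypes. Of 9 macrophage markers Cd14 alone was called, up by 1.24 and 1.36, while their sum was 34.5 to 46.0 in TG cerulein mice against 47.8 to 50.1 in TG saline mice, and 36.3 to 43.9 in WT cerulein mice against 42.4 to 53.5 in WT saline mice. The part of these shifts in the results below was not tested, and in whole tissue fewer cells of a type and less RNA per cell cannot be told apart.

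After cerulein, Egr1 and Nr4a2 rose in both genotypes, Egr2 passed the test in WT and not in TG mice (the difference between them, given below, did not pass), and Nr4a1 and Egr3 passed it in neither. Nr4a3 also passed in both, but it was well above background on the cerulein arrays alone and so had to differ once it was kept. Of the 5 other members 2 were called up in TG mice, where 4.78% of all genes were, and 3 in WT mice, where 5.63% of all genes were. None was called down. Their median log2 difference was 1.32 in TG mice and 2.80 in WT mice, while the median of all genes tested was -0.06 in each. Each of these member medians is the Egr2 value, and the WT one is of uncertain size, as given below. Every cerulein array lay above every saline array for 4 of these 5 in TG mice (9.95% of all genes) and for 2 of 5 in WT mice (7.35%). With slide as a block the calls among the 5 numbered 2 in TG mice (15.2% of all genes called up) and 3 in WT mice (13.8%).

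**Figure D1:**
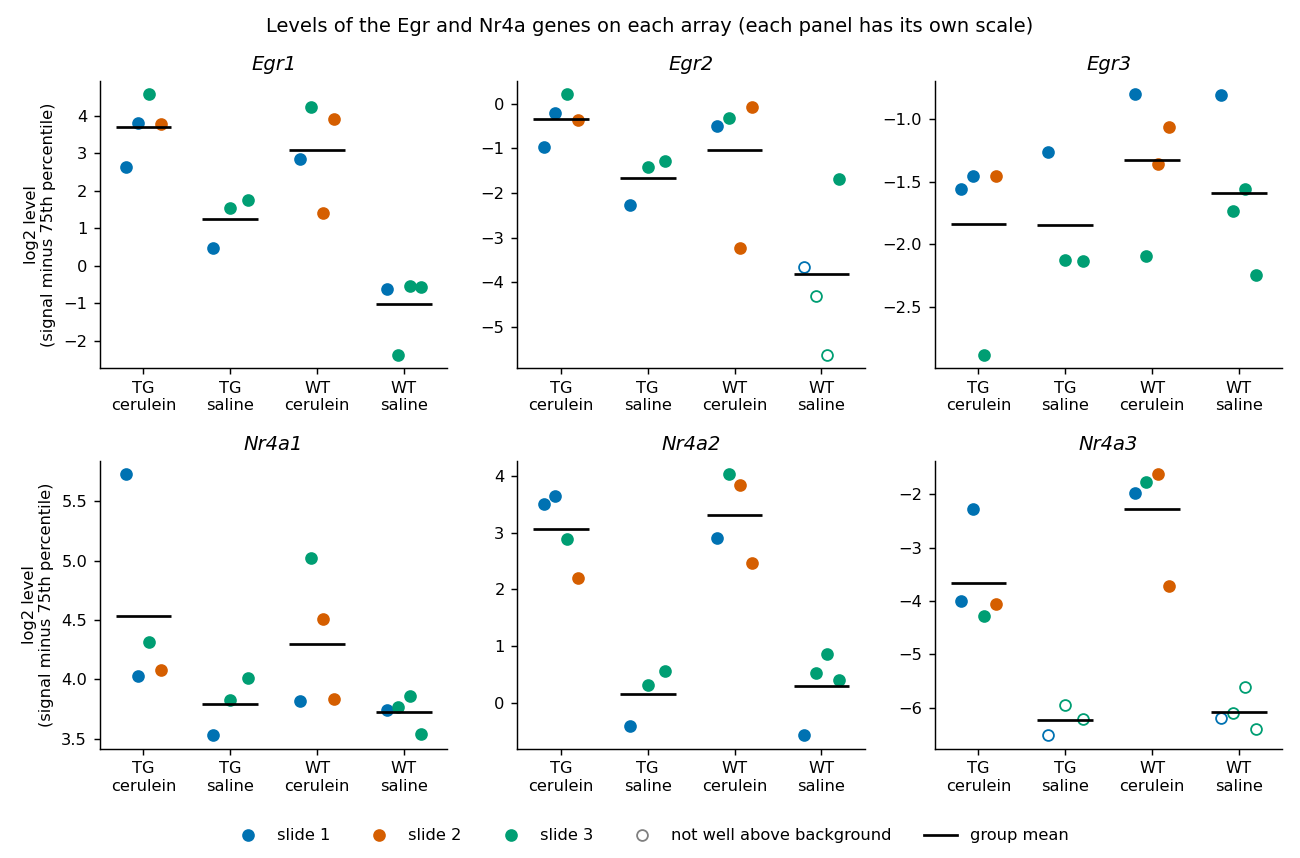
Log2 level of the 6 genes on each of the 15 arrays (y axis, a separate scale for each gene), by group on the x axis, coloured by slide, with open points where the probe was not well above background and a bar at the group mean. Egr1 and Nr4a2 separate cerulein from saline arrays in both genotypes. Nr4a3 does so too, but it was kept only through the cerulein arrays and so had to differ. Egr1 is also higher in TG than in WT saline mice, and Egr3 is lowest on slide 3 within every group.

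Egr1, the founding zinc-finger factor of its family, had log2 levels of 2.62, 3.81, 4.58 and 3.77 in TG cerulein mice, against 0.46, 1.55 and 1.74 in TG saline mice. In WT mice its log2 levels were 2.85, 4.24, 1.40 and 3.90 after cerulein, against -0.62, -2.38, -0.53 and -0.56 after saline. Cerulein and saline arrays did not overlap in either genotype, and the lowest cerulein array, WT replicate 11, stood below the highest TG saline array. By group mean the order was TG cerulein (3.70 ± 0.81), WT cerulein (3.1 ± 1.28), TG saline (1.25 ± 0.69) and WT saline (-1.02 ± 0.91; SD, n = 4 except 3 TG saline). The 2 cerulein groups, next to each other in that order, overlapped, and so did the WT cerulein and TG saline arrays.

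The Egr1 response was a log2 difference of 2.44 ± 0.66 in TG mice (SE; 5.44-fold, adjusted p = 0.0334) and 4.12 ± 0.61 in WT mice (17.4-fold, adjusted p = 0.000522). In WT mice that placed Egr1 at rank 43 of 17338 genes by size of rise. Within slides 1 and 3 the TG difference was 2.75 and 2.93 and the WT difference 3.47 and 5.40. The TG call rested on few animals: it was lost when any of 6 of the 7 TG arrays was left out, with differences of 2.05 to 2.69 and adjusted p of 0.0678 to 0.125. The WT call held without each array in turn.

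Egr2, a relative best known for its role in Schwann cells and lymphocytes, had log2 levels of -0.98, -0.20, 0.22 and -0.36 in TG cerulein mice, against -2.27, -1.42 and -1.28 in TG saline mice. In WT mice they were -0.49, -0.32, -3.23 and -0.07 after cerulein, against -3.67, -4.31, -5.64 and -1.68 after saline. The TG groups did not overlap. The WT groups overlapped through WT cerulein replicate 11, the low array, and WT saline replicate 8, the only WT saline array on which the probe was well above background.

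The WT difference of Egr2 was 2.80 ± 0.76 (adjusted p = 0.0244), and 3.29 with slide as a block (adjusted p = 0.0276). On the other 3 WT saline arrays the probe was not well above background, so the size of this difference is uncertain and no fold is given. The TG difference was 1.32 ± 0.82 (adjusted p = 0.381), with a 95% interval of -0.42 to 3.07. Leaving out WT saline replicate 6 or 7, or WT cerulein replicate 9 or 12, ended the WT call (2.19 to 2.63, adjusted p of 0.0613 to 0.0842), and background correction by normexp took the difference to 0.85 (adjusted p = 0.0986). In the order of group means Egr2 matched Egr1: TG cerulein (-0.33 ± 0.50), WT cerulein (-1.03 ± 1.48), TG saline (-1.65 ± 0.53) and WT saline (-3.82 ± 1.65), with the WT cerulein arrays overlapping each of the other groups.

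Egr3, which acts with Egr2 in lymphocytes and is needed for muscle spindles, did not separate the groups. Its log2 levels were -1.56, -1.46, -2.88 and -1.45 in TG cerulein mice, -1.26, -2.13 and -2.13 in TG saline mice, -0.81, -2.09, -1.36 and -1.06 in WT cerulein mice, and -0.82, -1.74, -1.56 and -2.24 in WT saline mice. The arrays on slide 3 were the low ones within every group. The difference was 0.00 ± 0.43 in TG mice (95% interval -0.91 to 0.91) and 0.26 ± 0.39 in WT mice (-0.58 to 1.10), and both turned negative with slide as a block, at -0.43 and -0.24.

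Nr4a1, the receptor also called Nur77, was well above background on every array and did not pass the test. Its log2 levels were 5.73, 4.03, 4.32 and 4.08 in TG cerulein mice, against 3.53, 3.82 and 4.01 in TG saline mice. In WT mice they were 3.81, 5.02, 4.51 and 3.83 after cerulein, against 3.74, 3.77, 3.86 and 3.54 after saline. Among the TG cerulein mice replicate 13 stood clear of the others, which lay just above the TG saline arrays. Among the WT cerulein mice replicates 10 and 11 lay above every WT saline array, and replicates 9 and 12 lay among them. The groups did not overlap in TG mice and overlapped in WT mice.

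The Nr4a1 difference was 0.75 ± 0.39 in TG mice (adjusted p = 0.281, 95% interval -0.08 to 1.57) and 0.57 ± 0.36 in WT mice (adjusted p = 0.290, -0.20 to 1.33). A rise of the size seen for Nr4a2 lies outside both intervals. Without TG cerulein replicate 13 the TG difference was 0.35.

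Nr4a2, also called Nurr1 and required for midbrain dopamine neurons, separated cerulein from saline arrays on both of its probes. Its brighter probe had log2 levels of 3.50, 3.64, 2.89 and 2.21 in TG cerulein mice, against -0.41, 0.32 and 0.56 in TG saline mice. In WT mice the same probe had log2 levels of 2.91, 4.03, 3.84 and 2.46 after cerulein, against -0.57, 0.53, 0.87 and 0.40 after saline. The lowest of the 8 cerulein arrays stood well above the highest of the 7 saline arrays, in whichever genotype.

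The Nr4a2 difference was 2.90 ± 0.46 in TG mice (7.47-fold, adjusted p = 0.00114) and 3.00 ± 0.42 in WT mice (8.01-fold, adjusted p = 0.000330). Both calls held in every alternative run. The other Nr4a2 probe had log2 levels of 1.72, 1.5, 0.64 and 0.51 in TG cerulein mice, against -0.80, -0.68 and -0.97 in TG saline mice. In WT mice it had 1.05, 1.5, 1.90 and 0.61 after cerulein, against -1.06, -0.63, -0.51 and -0.88 after saline. That probe separated the groups in the same way, with smaller differences of 1.91 ± 0.34 (adjusted p = 0.00402 over all probes) and 2.04 ± 0.32 (adjusted p = 0.00106).

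Nr4a3, also called NOR-1, was not well above background on any of the 7 saline arrays. Its log2 levels were -4.00, -2.28, -4.28 and -4.06 in TG cerulein mice, against -6.52, -5.94 and -6.21 in TG saline mice. In WT mice they were -1.98, -1.77, -1.63 and -3.73 after cerulein, against -6.20, -6.10, -5.62 and -6.40 after saline. Cerulein and saline arrays did not overlap. Among the cerulein arrays TG replicate 14 and WT replicates 9, 10 and 11 were at -2.28 or above, and the other 4 were at -3.73 or below.

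The 10 spots of the Nr4a3 probe had an SD of 0.06 to 0.42 on the log2 scale within an array. Every spot used was well above background on the 4 WT cerulein arrays and on TG replicates 14 and 16, while 5 of 9 were on TG replicate 13 and 6 of 9 on TG replicate 15. Because the saline level was not measured, the cerulein mean was also set against the lowest signal well above background on each saline array. It stood 1.5-fold above that floor in TG mice and 3.61-fold above it in WT mice. The floor is no strict bound: on WT saline replicate 5 it was -4.04, yet Egr2 was not well above background there at -3.67. In TG mice the floor averaged -4.25, close to cerulein replicates 13, 15 and 16 (-4.00, -4.28 and -4.06). The TG value thus rests mainly on replicate 14, at -2.28. The fitted differences of 2.57 ± 0.51 in TG mice (adjusted p = 0.00577) and 3.80 ± 0.47 in WT mice (adjusted p = 0.000121) rest on unmeasured saline levels and on a probe kept only through the cerulein arrays, and are given as a description. With normexp the differences shrank to 0.10 and 0.54 and neither passed.

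**Figure D2:**
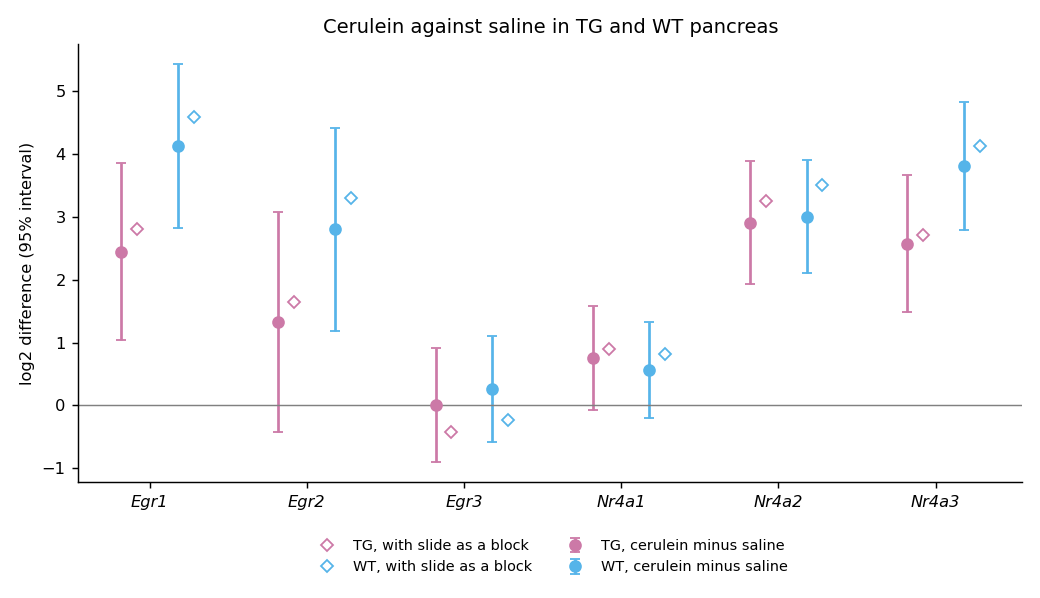
Cerulein minus saline log2 difference (y axis) of each gene in TG and WT mice, with its 95% interval, and the same difference with slide as a block as open diamonds. Nr4a2 is at 2.90 in TG and 3.00 in WT mice, Egr1 has the larger value in WT mice, and the intervals of Nr4a1 and Egr3 include 0 in both genotypes. The Nr4a3 values rest on saline signals not well above background and are a description only.

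The difference between the genotypes was tested directly. The cerulein response of Egr1 was smaller in TG than in WT mice by a log2 value of -1.68 ± 0.90, but the interval of -3.60 to 0.25 included 0 (adjusted p = 1). For Egr2 the difference of responses was -1.47 ± 1.11 (adjusted p = 1) and for Nr4a3 -1.23 ± 0.70 (adjusted p = 1), both of which take in saline signals that were not well above background. For Nr4a2 it was -0.10 ± 0.62, with an interval of -1.43 to 1.23. By limma 0 of 6 members were called, as were 0% of all genes, and 134 genes had an unadjusted p under 0.05.

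After cerulein the TG and WT mice did not differ by the test in any member: 0 of 6 were called, against 0.144% of all genes, and in 0 of 6 did every TG array exceed every WT array (1.57% of all genes). Nr4a3 had the largest difference, -1.38 ± 0.47 (TG minus WT; unadjusted p = 0.011, adjusted p = 0.469). Egr1 differed by 0.60 ± 0.61 and Egr2 by 0.70 ± 0.76, with adjusted p of 0.846 and 0.853.

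After saline the Egr1 and Egr2 levels of the TG mice were the higher ones, but neither passed the test. Egr1 differed by 2.27 ± 0.66 (TG minus WT; 4.84-fold, unadjusted p = 0.00377, adjusted p = 0.743) and every TG array exceeded every WT array. That was so for 1 of 6 members and for 4.41% of all genes. By size of rise Egr1 stood at rank 41 of 17338 genes. The Egr2 difference of 2.17 ± 0.82 (unadjusted p = 0.0183, adjusted p = 1) is of uncertain size, since the probe was well above background on 1 of 4 WT saline arrays. Of the 6 members 0 were called, against 0.075% of all genes (13 genes), and 558 genes had an unadjusted p under 0.05.

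The Egr1 saline difference was 1.09 within slide 1, where it sets 1 TG against 1 WT array, and 2.80 within slide 3. With limma's array weights, which give noisy arrays less say, Egr1 passed (3.08, adjusted p = 0.00258) and so did Egr2 (2.72, adjusted p = 0.0217). The weights also raised the count over all genes from 13 to 562, and the Egr2 limit on WT saline arrays given above holds here too. Nr4a1, Nr4a2 and Egr3 differed by -0.25 to 0.06 on the log2 scale after saline. Nr4a3 was not well above background on any saline array, so its genotype difference after saline was not measured. For Nr4a2 the interval was -1.12 to 0.83. Whether the Egr difference exceeds the Nr4a difference was not tested.

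Fibroblast and stellate cell markers moved with genotype in the same mice. The summed signal of the 10 markers, in multiples of the array's 75th percentile, was 103 to 180 in TG saline mice, against 64.4 to 94.4 in WT saline mice, and 123 to 248 in TG cerulein mice, against 47.3 to 94.5 in WT cerulein mice. The ranges do not overlap within a treatment. None of the 10 markers was called up after saline, against 0.075% of all genes, and none was called down. After cerulein 3 were called up (Col1a1, Col1a2 and Lum, by 2.51, 1.91 and 2.54), against 0.138% of all genes. The median log2 difference over the list was 0.86 after saline and 1.36 after cerulein. The part of these markers in the Egr1 and Egr2 levels was not tested.

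Nab2, a corepressor that binds Egr proteins and is itself a reported Egr target, had log2 levels of 0.06, 1.03 and 1.44 in TG saline mice, against -1.0, -1.14, -1.74 and -0.28 in WT saline mice. These groups did not overlap. The difference was 1.89 ± 0.43 (adjusted p = 0.264), and 1.94 with slide as a block (adjusted p = 0.0452). The 2 Nab2 probes disagreed: this is the brighter, and the other differed by 0.01. In WT mice Nab2 differed by 1.12 ± 0.40 between cerulein and saline (adjusted p = 0.0738; 1.70 with slide as a block, adjusted p = 0.0046), and in TG mice by -0.28 ± 0.43.

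**Figure D3:**
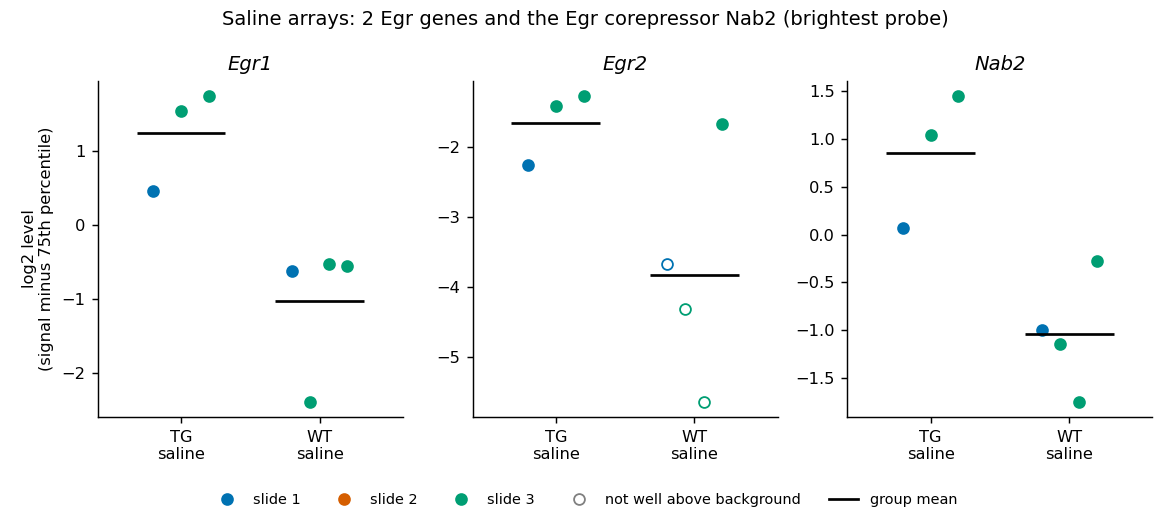
Log2 levels of Egr1, Egr2 and Nab2 (brighter probe) on the 3 TG and 4 WT saline arrays, coloured by slide, open where not well above background, with bars at the group means. The TG arrays of Egr1 and Nab2 lie above all WT arrays, and for Egr2 WT replicate 8, at -1.68, lies among the TG arrays.

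Among the 8 cerulein mice Egr1 and Egr2 varied together. Their levels correlated at Pearson r = 0.912 (exact permutation over 40320 orders, two-sided p = 0.0003, adjusted p = 0.004 over 15 pairs of members) and Spearman rho = 0.929 (exact permutation p = 0.0022, adjusted p = 0.033). Without the 2 mice farthest from the Egr1 median, WT replicate 11 and TG replicate 13, r was 0.778 over 6 mice. After subtraction of slide means r was 0.969, and after subtraction of group means 0.903. A slide held only 2 or 3 cerulein arrays, too few for a value of its own. Of the other 14 pairs none passed after adjustment. The points share the array and its scaling.

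Egr1 and Egr2 ranked apart from Nr4a members in some mice and together with them in another. WT replicate 11 was the lowest of the 8 cerulein mice for Egr1 and Egr2. The same mouse was the highest for Nr4a3, next to highest for Nr4a2 and at rank 3 for Nr4a1. TG replicate 15 was the highest for Egr1 and Egr2, and at ranks 4 and 6 for Nr4a1 and Nr4a2. Its Nr4a3 level of -4.28 was the lowest, but close to TG replicates 16 and 13 (-4.06 and -4.00) and near the background. TG replicate 13, with the highest Nr4a1, ranked 7 of 8 for Egr1 and Egr2. WT replicate 10 was at rank 2 for Egr1 and 4 for Egr2, and at ranks 2, 1 and 2 for Nr4a1, Nr4a2 and Nr4a3. Egr3 ranked apart from Egr1 and Egr2 in WT replicate 11 (rank 3), TG replicate 15 (rank 8) and WT replicate 10 (rank 7). In TG replicate 13 it ranked near them (rank 6). Because the Nr4a3 levels lie in separate clusters, no correlation is given for that gene.

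**Figure D4:**
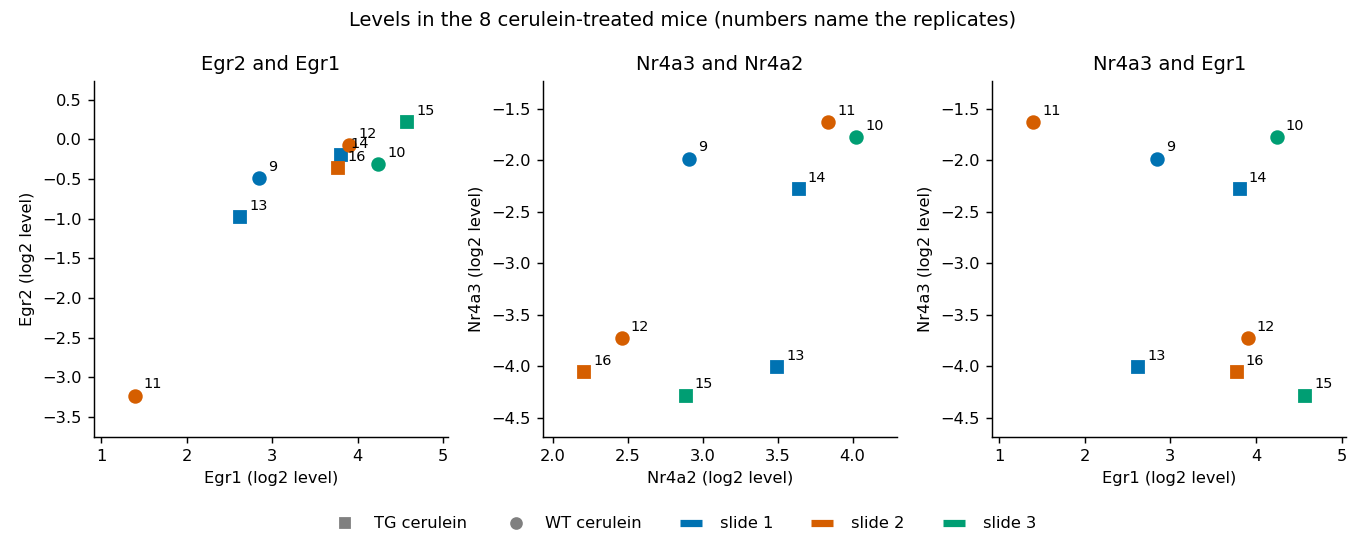
Log2 levels of pairs of genes in the 8 cerulein mice, TG as squares and WT as circles, coloured by slide and numbered by replicate: Egr2 by Egr1, Nr4a3 by Nr4a2, and Nr4a3 by Egr1. Egr1 and Egr2 line up at r = 0.912, whereas WT replicate 11 is lowest in Egr1 and highest in Nr4a3.

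Of the genes that lead to Egr transcription through ERK and serum response factor, 3 of 18 (16.7%) were called up in TG mice and 3 in WT mice, against 4.78% and 5.63% of all genes, and 1 (5.56%) was called down in WT mice, against 8.35% of all genes. Srf, which encodes serum response factor itself, rose by 2.91 ± 0.34 in TG mice (adjusted p = 0.000106) and by 2.91 ± 0.32 in WT mice (adjusted p = 3.79e-05). The kinases Rps6ka2 and Rps6ka3, of the RSK family downstream of ERK, rose by 1.61 and 1.38 in TG mice and by 1.36 and 1.52 in WT mice, although the other Rps6ka3 probe passed in neither. Elk3, a ternary complex factor that can repress, fell by 1.03 in WT mice, a call lost without slide 2, with slide as a block, and in 5 of the runs that left out 1 array (adjusted p up to 0.0702). The list's median was 0.18 in TG mice and -0.15 in WT mice. With slide as a block the calls up were 5 in TG mice and 6 in WT mice, against 15.2% and 13.8% of all genes.

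Of 25 genes of the calcium and cAMP route to the Nr4a genes, 2 (8%) were called up and 1 (4%) down in TG mice, against 4.78% and 3.42% of all genes. In WT mice 3 (12%) were called up and 2 (8%) down, against 5.63% and 8.35% of all genes, so the shares down were near those of all genes. Crem, whose products include a repressor of cAMP-responsive genes, rose by 3.49 ± 0.40 in TG mice (adjusted p = 8.97e-05) and by 3.37 ± 0.37 in WT mice (adjusted p = 4.12e-05), on 2 of its 3 probes. Mef2d, a calcium-responsive partner in Nr4a1 transcription in T cells, rose by 1.69 and 1.22. Its other probe rose by 1.35 in TG mice (adjusted p = 0.0415 by limma over all probes) and did not pass in WT mice (1.12, adjusted p = 0.0533). Hdac5, a class IIa histone deacetylase that binds Mef2 factors, rose by 0.97 in WT mice, a call lost without WT saline replicate 6, 7 or 8 or WT cerulein replicate 9. Camk2g, a calcium/calmodulin kinase, fell by 0.83 in TG mice and 0.79 in WT mice, and Prkacb, a catalytic subunit of protein kinase A, fell by 0.81 in WT mice. These calls were lost without slide 2, and when 1 array was left out they were lost in 9 runs for Camk2g in TG mice (adjusted p up to 0.16), in 5 for Camk2g in WT mice (up to 0.0863) and in 5 for Prkacb (up to 0.0815). The medians were -0.05 and -0.11, and with slide as a block 6 genes were called up in each genotype, against 15.2% and 13.8% of all genes.

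Of 19 reported Egr targets measured, 6 (31.6%) were called up in TG mice and 7 (36.8%) in WT mice. Over all genes the shares called up were 4.78% in TG mice and 5.63% in WT mice. In WT mice, where 8.35% of all genes were called down, 2 of the 19 targets were. Of these Ccnd1, cyclin D1, fell by 1.06, a call lost without slide 2, with slide as a block, and in 4 of the runs that left out 1 array (adjusted p up to 0.0676). Gdf15, a stress-induced cytokine, rose by 4.46 ± 0.59 in TG mice (adjusted p = 0.000277) and by 4.13 ± 0.54 in WT mice (adjusted p = 0.000187). Thbs1, the matrix protein thrombospondin 1, rose by 3.03 and 3.52, and the synaptic gene Arc by 2.69 and 3.30. The median was 0.41 in TG mice and 1.12 in WT mice, against -0.06 over all genes. With slide as a block 6 of the 19 were called up in TG mice and 8 in WT mice, against 15.2% and 13.8% of all genes. The list names reported targets, and their control by Egr1 was not measured here. After saline every TG array exceeded every WT array for 5 of the 19, against 4.41% of all genes, none of them called: Nab2, Thbs1 (1.15), the coagulation factor gene F3 (1.11), Ccnd1 (0.79) and the metalloproteinase gene Mmp14 (0.56). The other F3 probe differed by 0.56.

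Of 15 reported Nr4a targets 0 were called up in either genotype, against 4.78% of all genes in TG and 5.63% in WT mice. In each genotype 1 (6.67%) was called down, against 3.42% and 8.35% of all genes. It was Th, tyrosine hydroxylase of catecholamine synthesis, which fell by 1.18 in TG mice and 0.92 in WT mice; the WT call was lost without slide 2 and in 5 of the runs that left out 1 array (adjusted p up to 0.0744), and the TG call without TG saline replicate 3 or 4 (up to 0.0706). Th is also a marker of the neural and glial list, whose 10 genes had a summed signal of 32.2 to 76.6 in TG cerulein mice against 63.9 to 93.5 in TG saline mice, and of 40.1 to 87.8 in WT cerulein mice against 58.1 to 106 in WT saline mice; the part of those cells was not tested. The list's median was -0.40 in TG mice and -0.24 in WT mice. Of the Rxr receptors that pair with Nr4a proteins, 0 of 3 were called. Of the 3 measured Egr relatives and corepressors (Wt1, Nab1 and Nab2) 0 were called, and Egr4 was below the filter.

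Among 28 other immediate early genes, 22 (78.6%) were called up in TG mice and 20 (71.4%) in WT mice, against 4.78% and 5.63% of all genes. The list's median was 2.72 in TG mice and 2.60 in WT mice. The median of the 5 members other than Nr4a3, given above, was lower than this in TG mice, and the difference was not tested. In WT mice that median was the Egr2 difference, which is of uncertain size, so it is not set against the list. Atf3, a stress-induced ATF/CREB family factor, had the largest rise of the list, at 9.75 ± 0.31 in TG mice (adjusted p = 1.9e-10) and 9.89 ± 0.29 in WT mice (adjusted p = 5.11e-11). Csrnp1, a nuclear transcription factor, rose by 4.95 and 4.64, the repressor Nfil3 by 4.69 and 4.37, and the AP-1 subunit Fos by 4.07 and 4.68. In TG and WT saline mice Atf3 was well above background on 2 of 3 and 2 of 4 arrays and Fos on 2 of 3 and 1 of 4, so these rises start from levels near the background. Against that class, Nr4a1 and Egr3 were among the genes that did not pass.

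The genes most like each member were found as those whose level, centred on its own mean over the 15 arrays, had the smallest root mean square difference from that of the member. For Nr4a2 they were Chka, Plk3 and Cpeb2, at log2 values of 0.39, 0.42 and 0.43, where Nr4a2 itself varied by 1.57. For Nr4a3 they were Cpeb2, Ifrd1 and Crem, at 0.71, 0.76 and 0.78. For Egr1 they were Hectd2, Scx and Stbd1, at 0.67, 0.81 and 0.82, and for Egr2 they were Fhl2, Foxq1 and Ect2, at 0.74, 0.77 and 0.79. For Nr4a1 they were Cnot11, Tns2 and Gramd1b, at 0.27, 0.28 and 0.29, and for Egr3 they were Hsd17b14, Azin2 and Gpr162, at 0.18, 0.21 and 0.22, where both members varied little. Between members the smallest distance was 0.65, for Nr4a2 and Nr4a3, and Egr1 and Egr2 were 1.04 apart. All distances of Nr4a3 and Egr2 take in saline signals that were not well above background, and are a description.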

How the data were processed

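Signals are fluorescence intensity values which Agilent Feature Extraction (version 10.7.3.1, per the file headers) gave the authors, background-subtracted within each array and not scaled between arrays. The flags used (well above background, saturated, outlier) are other per-spot values deposited beside them. The deposited series table holds log2 values normalised by the authors by a method that is not given in the sources, and served as an alternative.

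Control spots and flagged outlier spots (105 to 188 per array) were left out, spots of a probe were averaged, and the 75th percentile of each array was subtracted on the log2 scale. Accessions were matched to RefSeq symbols, which named 27235 of 55681 probes. Probes well above background on at least 3 arrays were kept (42181), and each of 17338 genes was read from its brightest kept probe. The test was limma (version 3.58.1, in R 4.3.3 with data.table, version 1.17.8), with 4 group means over 15 arrays, two-sided, with Benjamini-Hochberg adjustment. Of 20660 genes with a probe the rest failed the filter, and 21 tested genes lacked a value on at least 1 array. Correlations used Python 3.11.15 and NumPy 2.4.6. On simulated data, 93 of 100 genes changed by 3 log2 units were recovered, and 56 of 100 changed by 1.5, among 17338 genes.

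The files have no mean signal column, so the normexp alternative (offset 50) used the median signal. Other alternatives were quantile scaling, the series table, both filters, the mean of a gene's probes, slide as a block, omission of slide 2, array weights and leaving out each array. The members and lists were chosen with earlier results of these data known. Named are all members, every called gene of a list with 5 or fewer calls, otherwise the 3 largest changes per genotype, and the 3 genes most like each member; Nab2, the non-overlapping Egr targets and the called markers were named after their values were seen. Some list genes are not reported here. The number of arrays limits the precision. The labels number the animals separately, and p-values measure the spread between animals.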

Additional observations from a re-analysis of the deposited data

Results flagged for a closer look

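In 6 of 18 sets of 4 arrays tested (6 genes in the 3 groups of 4 mice), 1 array stood apart from the other 3 by Dixon's test, which flags about 1 set in 20 by chance. Egr1 in WT saline mice was -2.38 on replicate 6, with the other 3 arrays close together. Egr2 in WT cerulein mice was -3.23 on replicate 11, the same animal that had the lowest Egr1 of the cerulein mice. Egr3 in TG cerulein mice was -2.88 on replicate 15, the only array of that group on slide 3. Nr4a1 in TG cerulein mice was 5.73 on replicate 13. Nr4a3 stood apart upward in TG cerulein mice, at -2.28 on replicate 14, and downward in WT cerulein mice, at -3.73 on replicate 12. All values are log2 levels.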

How the results depend on the processing

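Among the called cerulein responses, Egr1 in WT mice and Nr4a2 in both genotypes kept their direction and call in all 24 alternatives. Egr1 in TG mice lost its call in 6, Egr2 in WT mice in 5, and Nr4a3 in 1 in each genotype, all in the same direction. Nr4a3 was kept only through the cerulein arrays, so its calls are a description. Fewer members were called in WT mice with normexp (2) and with probes above background on all arrays (2, since Nr4a3 and Egr2 are then not tested). After saline, array weights called 2 members. The count of genes called moved as follows, and the cause was not tested. In the TG response it was 2196 with quantile scaling, 4082 with slide as a block and 7725 with array weights (1422 as reported), and 695 to 1835 without 1 array. In the WT response it was 3738 with slide as a block, 1555 without slide 2 and 7093 with array weights (2424 as reported), and 1376 to 4438 without 1 array. For TG against WT after cerulein it was 46 with quantile scaling, 47 with the series table, 114 with slide as a block and 4 without slide 2 (25 as reported), and 11 to 45 without 1 array. After saline it was 7 with normexp, 39 with slide as a block and 562 with array weights (13 as reported), and 4 to 15 without 1 array. For the difference of responses it was 1 with slide as a block (0 as reported).

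Reversals touched differences that had not passed the test. The Egr3 response in TG mice became -0.21 with normexp, -0.0086 with quantile scaling, -0.43 with slide as a block, -0.12 without slide 2, and -0.14 to 0.35 without 1 array. In WT mice it became -0.24 with slide as a block. Nr4a2 in TG against WT after cerulein became 0.28 with array weights, and its difference of responses 0.023 without slide 2 and 0.45 with array weights. Without 1 array, the TG minus WT differences after cerulein ran from -0.037 to 1.02 for Egr2, -0.15 to 0.48 for Nr4a1 and -0.53 to 0.033 for Nr4a2. After saline they ran from -0.54 to 0.003 for Egr3, -0.052 to 0.19 for Nr4a1, -0.44 to 0.13 for Nr4a2 and -0.29 to 0.0074 for Nr4a3. The Nr4a3 values compare saline signals that were not well above background. The differences of responses ran from -0.51 to 0.092 for Egr3, -0.22 to 0.42 for Nr4a1 and -0.38 to 0.19 for Nr4a2. The correlation of Egr1 with Egr2 was 0.889 to 0.955 with the other values and without slide 2, and 0.880 to 0.951 without 1 array. No paired analysis was possible because the groups share no replicate number.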
